A study of Mus musculus with 6 samples.

Results

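Lin- bone marrow cells were compared with Gr1+Mac1+ bone marrow cells of the same mice, gene by gene. Lin- cells are the marrow fraction left after depletion of cells that carry lineage markers, and the labels call them hematopoietic progenitors. Gr1+Mac1+ cells carry both Gr1, an antigen of granulocytes and some monocytes, and Mac1, the integrin of myeloid cells. All genes with a usable value in all 6 libraries and a mean level of at least 1 FPKM were compared, which left 11489 of 23746 gene entries. The genes nearest to this limit were 2900056M20Rik, kept at a mean of 1.0003 FPKM, and Popdc2, left out at 0.9997 FPKM. FPKM is a fragment number scaled to the length of the transcript and to the total of the library.

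The mice were C57BL/6 animals of 12 weeks in 3 genotypes of Diap1, the gene of the actin-nucleating formin mDia1. Lin- cells were taken from wild type (WT), Diap1 +/- (Het) and Diap1 -/- (KO) mice, and Gr1+Mac1+ cells from the same WT, Het and KO mice. For each genotype the marrow of 4 mice was pooled, the double positive cells were pulled out with magnetic beads, and uncommitted progenitors were then enriched from the rest by depletion, per the labels' protocols. Each genotype and fraction is thus 1 library, and the 3 pools served as the replicates of the comparison. Because the pools differ in genotype, the spread between them holds any effect of Diap1 on the difference between the fractions. It also holds the variation between mice and libraries. Every p-value below rests on that spread, which the fit draws toward the spread of other genes of similar level.

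Blood formation in the marrow starts from multipotent cells that express growth factor receptors such as KIT and branch toward red cells, platelets, granulocytes, monocytes and lymphocytes. GATA1 and KLF1 drive the red cell branch, whereas PU.1 and the C/EBP factors drive the granulocyte and monocyte branch. Neutrophil precursors make their granule proteins in waves, first those of the primary granules and later those of the secondary and tertiary granules, and stop dividing as they mature.

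The libraries were of similar depth, with an implied 9420000 to 10400000 fragments in Lin- and 8630000 to 11600000 in Gr1+Mac1+, read from the width of the deposited intervals. The 10 most abundant genes held 8.72% to 10.5% of all FPKM in Lin- and 25.1% to 27.8% in Gr1+Mac1+ libraries. Diap1 itself stood at 36.0, 24.2 and 6.07 FPKM in WT, Het and KO Lin- cells, against 57.1, 34.1 and 4.07 FPKM in WT, Het and KO Gr1+Mac1+ cells. It fell in step with the labelled genotype in both fractions. In the WT and Het pools it was lower in Lin- than in Gr1+Mac1+ cells, and in the KO pool it was not. The pools differ in this gene by design, so its test between the fractions (adjusted p = 0.444) cannot show whether their levels are equal. The Het Lin- library stood apart from the other Lin- libraries: for 35 genes of secondary and tertiary granules, its level was a median 5.93% of that in Het Gr1+Mac1+ cells, with quartiles of 5.41% and 6.72%. The same share was 0.0416% in the WT pool and 0.0585% in the KO pool. For mature neutrophil genes the shares were 7.88% in Het, 1.74% in WT and 1.57% in KO. Medians of the myeloid lists are therefore given with and without the Het pool, as are some of the genes that it moved. A gene given only with all pools may have moved as well.

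Differences were fitted with limma on log2(FPKM + 1), with the pool as a block, and are Lin- minus Gr1+Mac1+. The median of all genes tested was 0.33 toward Lin-, so every difference below is given relative to that median and is called the relative log2 difference. On this scale small levels give compressed differences. A gene was called higher in a fraction when the Benjamini-Hochberg adjusted p of its difference was under 0.05 and its relative log2 difference was at least 1, that is 2-fold. By this rule Lin- cells were the higher ones for 1597 genes (13.9%), and Gr1+Mac1+ cells for 2591 genes (22.6%). The Gr1+Mac1+ side also held the larger differences: 65 genes (0.566%) were called with a relative log2 difference of at least 3 toward Lin-, against 625 genes (5.44%) toward Gr1+Mac1+. By the adjusted p alone, on the unshifted values, 5931 genes (51.6%) passed toward Lin- and 3491 genes (30.4%) toward Gr1+Mac1+, but after the libraries were rescaled by the median ratio the numbers were 4489 and 4483. The relative difference had 1 sign in all 3 pools for 88% of genes. The libraries of the fractions did not overlap for 85.8% of genes, so separate ranges are the rule rather than a feature of any single gene.

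Genes were also grouped into 31 lists by function and cell type. Of 862 listed symbols, 859 were found, 50 of these fell under the level limit, 6 lacked a usable status, and symbols on more than 1 locus were left out of the counts. A gene that passes the level limit only through the fraction in which it is high must differ, so the counts below describe the genes tested and are read beside the 13.9% and 22.6% of all genes.

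**Figure D1:**
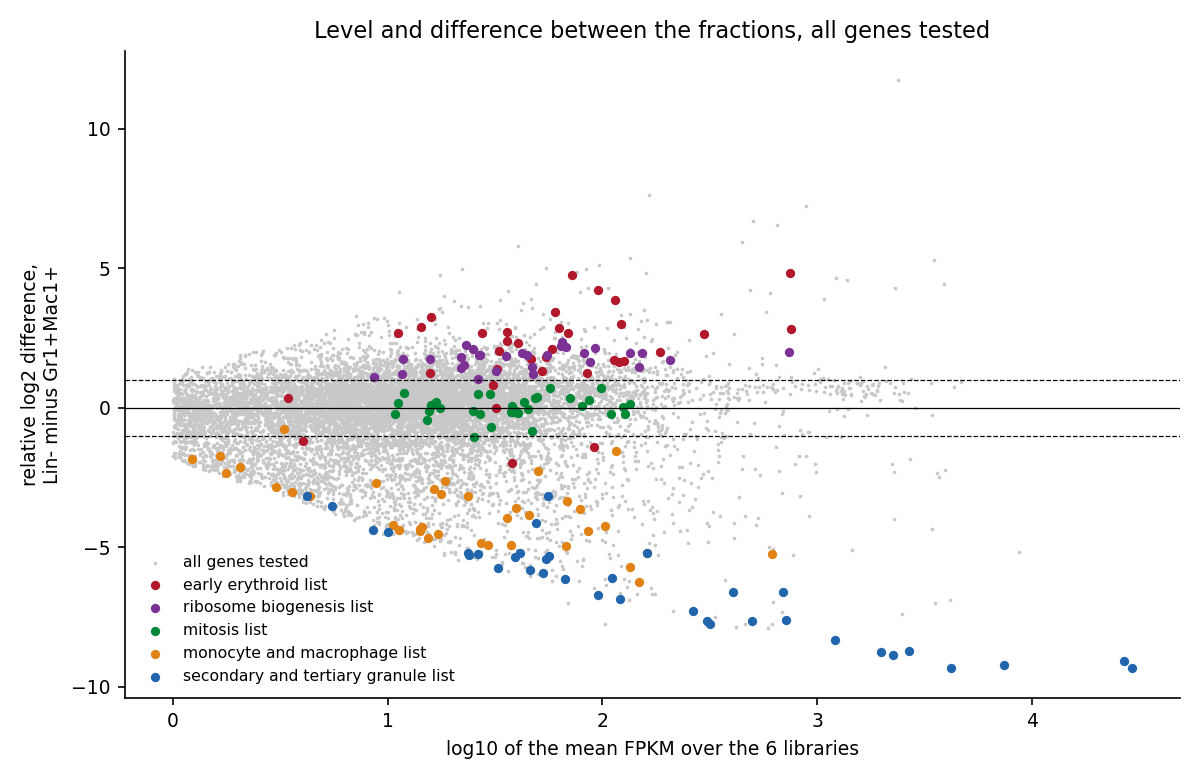
Each point is 1 of the 11489 genes, with the log10 of its mean FPKM over the 6 libraries on the x axis and the relative log2 difference, Lin- minus Gr1+Mac1+, on the y axis; dashed lines mark 2-fold. The secondary and tertiary granule genes run down to -9.35 at the highest levels, the ribosome biogenesis genes all lie above 1, and the mitosis genes lie around 0.

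The labels were checked against marker genes. Ly6g, a gene of the Gr1 antigen and a planned granulocyte marker, was not found among the gene entries and could not be checked. Kit, the receptor of stem cell factor, had 72.6, 66.4 and 84.7 FPKM in WT, Het and KO Lin- cells, against 14.97, 15.68 and 14.94 FPKM in WT, Het and KO Gr1+Mac1+ cells. The ranges were far apart, and Kit was higher in Lin- by a relative log2 difference of 1.88 (SE 0.10, adjusted p = 0.000114). Cd34, a sialomucin of progenitors, had 22.2, 18.6 and 24.98 FPKM in Lin- and 16.3, 18.2 and 18.2 FPKM in Gr1+Mac1+ libraries, with a relative log2 difference of -0.04 (adjusted p = 0.0586). Flt3, a receptor of lymphoid and myeloid progenitors, stood at -0.01 (adjusted p = 0.123), and neither of these was called. Itgam, which encodes the Mac1 alpha chain, was listed at 0.640, 16.9 and 1.31 FPKM in WT, Het and KO Lin- cells, against 293, 311 and 293 FPKM in Gr1+Mac1+ cells. It lacked a usable status in at least 1 library and was not tested. Ptprc, which encodes the pan-leukocyte antigen CD45, was also higher in Gr1+Mac1+ cells, with 14.6 to 19.8 FPKM in Lin- and 154 to 165 FPKM in Gr1+Mac1+ libraries (relative log2 difference -3.53, adjusted p = 0.000109). Of the 15 surface selection markers tested, Kit alone was called higher in Lin- and 10 were called higher in Gr1+Mac1+. These are levels of whole fractions, in which fewer cells of a type and less RNA per cell cannot be told apart.

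Genes of early red cell formation were mostly higher in Lin- cells. Of 35 tested genes on the list of erythroid regulators and early erythroid genes, 29 were called higher in Lin- and 3 in Gr1+Mac1+, with a median relative log2 difference of 2.12. Their summed level was 6288 to 6610 FPKM in the Lin- and 822 to 1195 FPKM in the Gr1+Mac1+ libraries. Klf1, the erythroid Kruppel-like factor, had 112.5, 117 and 110 FPKM in WT, Het and KO Lin- cells, against 17.2, 11.8 and 7.61 FPKM in Gr1+Mac1+ cells of the same pools. The Lin- values lay close together while the Gr1+Mac1+ values differed more between pools, and the relative log2 difference was 2.85 (SE 0.21, adjusted p = 0.000235). Epor, the erythropoietin receptor, had 66.9, 65.9 and 62.2 FPKM in Lin- and 10.7, 5.51 and 5.53 FPKM in Gr1+Mac1+ libraries. All Lin- values were above all Gr1+Mac1+ values, by a relative log2 difference of 2.73 (SE 0.18, adjusted p = 0.000186). Gata1, the master regulator of red cells and platelets, was at 122 to 124 FPKM in Lin- and 11.4 to 19.9 FPKM in Gr1+Mac1+ libraries, and its partners Tal1 and Zfpm1 had relative log2 differences of 2.39 and 2.33. Gfi1b, a repressor needed for red cells and platelets, stood at 3.45. The carbonic anhydrase genes Car1 and Car2 were among the most abundant of the list, at 1463 ± 51.9 and 1355 ± 85.0 FPKM in Lin- against 41.2 ± 12.0 and 158 ± 54.6 FPKM in Gr1+Mac1+ (SD, n = 3 pools each).

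Not all of the list went this way. Nfe2, a globin and platelet gene regulator, was called higher in Gr1+Mac1+ cells, with 53.2 to 61.9 FPKM in Lin- and 119 to 128 FPKM in Gr1+Mac1+ libraries. E2f2, a cell cycle factor of late erythroblasts, had a relative log2 difference of -1.98 and Cd36, a fatty acid transporter, one of -1.201. Mybl2, Sox6 and Stat5b were not called, at 0.83, 0.34 and 0.00.

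The promoter windows of Klf1 and Epor, a regulator and a receptor of this branch, are shown because both hold the letters of a GATA site. They are the RefSeq windows on GRCm38.p6, from 250 bases before to 50 bases after an annotated start, read along the gene, with the GATA letters in capitals (AGATAA or TGATAA on either strand, here read as their reverse complement). The Klf1 window is chr8:84901732-84902031 on the plus strand, at the start of the gene at chr8:84901928-84905295. The Epor window is chr9:21963527-21963826 on the minus strand, at the start of the gene at chr9:21958899-21963576.
Klf1: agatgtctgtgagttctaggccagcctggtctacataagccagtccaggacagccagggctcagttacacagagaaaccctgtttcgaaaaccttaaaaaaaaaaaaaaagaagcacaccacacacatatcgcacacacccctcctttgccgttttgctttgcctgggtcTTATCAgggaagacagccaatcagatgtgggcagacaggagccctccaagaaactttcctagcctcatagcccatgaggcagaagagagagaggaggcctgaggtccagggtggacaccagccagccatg
Epor: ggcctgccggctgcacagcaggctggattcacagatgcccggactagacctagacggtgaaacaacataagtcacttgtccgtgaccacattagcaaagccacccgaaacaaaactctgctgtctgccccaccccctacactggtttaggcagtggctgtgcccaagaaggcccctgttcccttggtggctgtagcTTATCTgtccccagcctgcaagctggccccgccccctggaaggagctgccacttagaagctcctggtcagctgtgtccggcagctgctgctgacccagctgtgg
Of the 29 list members with a window, 13 (44.8%) held such letters, as did 10.5% of the windows of all genes tested and 18.9% of all RefSeq windows, with 1 window per gene. The letters TTGCNNAA of a C/EBP site were in 3.45% of the early erythroid windows, CCACACCC of a KLF site in 3.45% and GAGGAA of an ETS site in 24.1%, against 8.66%, 3.82% and 26.7% of the windows of all genes tested. The Gata1 window held neither the GATA nor the KLF letters. These matches describe letters and not binding, and the search covered this window only.

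Genes on the heme synthesis list, which also holds genes of iron transport, were mostly, but not uniformly, higher in Lin- cells. Of 21 tested, 11 were called higher in Lin- and 3 in Gr1+Mac1+, with a median relative log2 difference of 1.16. Tfr2, the second transferrin receptor, had 88.1 to 90.0 FPKM in Lin- and 3.52 to 6.91 FPKM in Gr1+Mac1+ libraries, a relative log2 difference of 3.58. Among the middle enzymes of the pathway, those higher in Lin- included Cpox by 2.22, Alad by 2.03 and Urod by 1.34. The last step, Fech, which inserts the iron, was at 0.80 and was not called. The first step went the other way. Alas2, the erythroid form of the rate-limiting synthase, had 18.7, 16.8 and 36.4 FPKM in WT, Het and KO Lin- cells, against 123.5, 94.5 and 90.3 FPKM in WT, Het and KO Gr1+Mac1+ cells. No Lin- value reached any Gr1+Mac1+ value, and the relative log2 difference was -2.46 (SE 0.29, adjusted p = 0.00215). Alas1, the form of other cells, was also higher in Gr1+Mac1+, with a relative log2 difference of -2.63 (SE 0.10, adjusted p = 0.000114) and 10.2 to 12.0 FPKM in Lin- against 53.7 to 63.0 FPKM in Gr1+Mac1+ libraries. The remaining gene called on that side was Slc25a37, the mitochondrial iron importer, at -1.15.

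Genes of the finished red cell split. On the list of globins and red cell membrane proteins, 8 of 21 tested were called higher in Lin- and 4 in Gr1+Mac1+, with a median of 0.22. The higher ones included parts of the membrane skeleton, such as Add2 at 2.82, Ank1 at 2.05 and the spectrin genes Spna1 at 1.204 and Spnb1 at 1.19. Other skeleton genes were not called, such as Epb4.1 at 0.22 and Add1 at -0.06. The membrane protein genes Cldn13 and Tspan33 were also called higher in Lin-, at 1.96 and 1.55. Slc4a1, the band 3 anion exchanger that appears late, had 24.9, 36.5 and 29.9 FPKM in Lin-, against 162, 118 and 87.0 FPKM in Gr1+Mac1+, a relative log2 difference of -2.28 (adjusted p = 0.00169). Hbb-b1, an adult beta globin, had 703, 693 and 1449 FPKM in WT, Het and KO Lin- cells, against 4311, 4013 and 2527 FPKM in WT, Het and KO Gr1+Mac1+ cells. The ranges did not overlap, but the difference was smaller in the KO pool, and the relative log2 difference of -2.32 (SE 0.41, adjusted p = 0.00884) had an adjusted p of 0.0546 without the WT pool. Globin genes have near-identical copies, so the split of fragments between them is uncertain. Genes of terminal red cell maturation had a median of -0.59, with 5 of 34 called higher in Lin- (Slc22a23, Prdx2, Trim58, Optn and Arl4a) and 9 in Gr1+Mac1+. Both counts are near the shares of all genes tested, 13.9% and 22.6%, so they do not set this list apart. Among the 9 were Map1lc3a, an autophagy gene, at -2.13, the ubiquitin-conjugating enzyme gene Ube2h at -1.92 and Bpgm, which makes the regulator of oxygen release, at -1.64.

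The size of the red cell differences varied with the pool. The median of the early erythroid list was 1.98 in the WT, 2.16 in the Het and 2.47 in the KO pool, and that of the globin and membrane list was -0.33, 0.25 and 0.82. In Gr1+Mac1+ cells the summed level of the early erythroid list was 1195 FPKM in WT, 915 in Het and 822 in KO, while in Lin- cells it was 6411, 6288 and 6610. Each pool is 1 genotype, so genotype and pool cannot be told apart here.

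**Figure D2:**
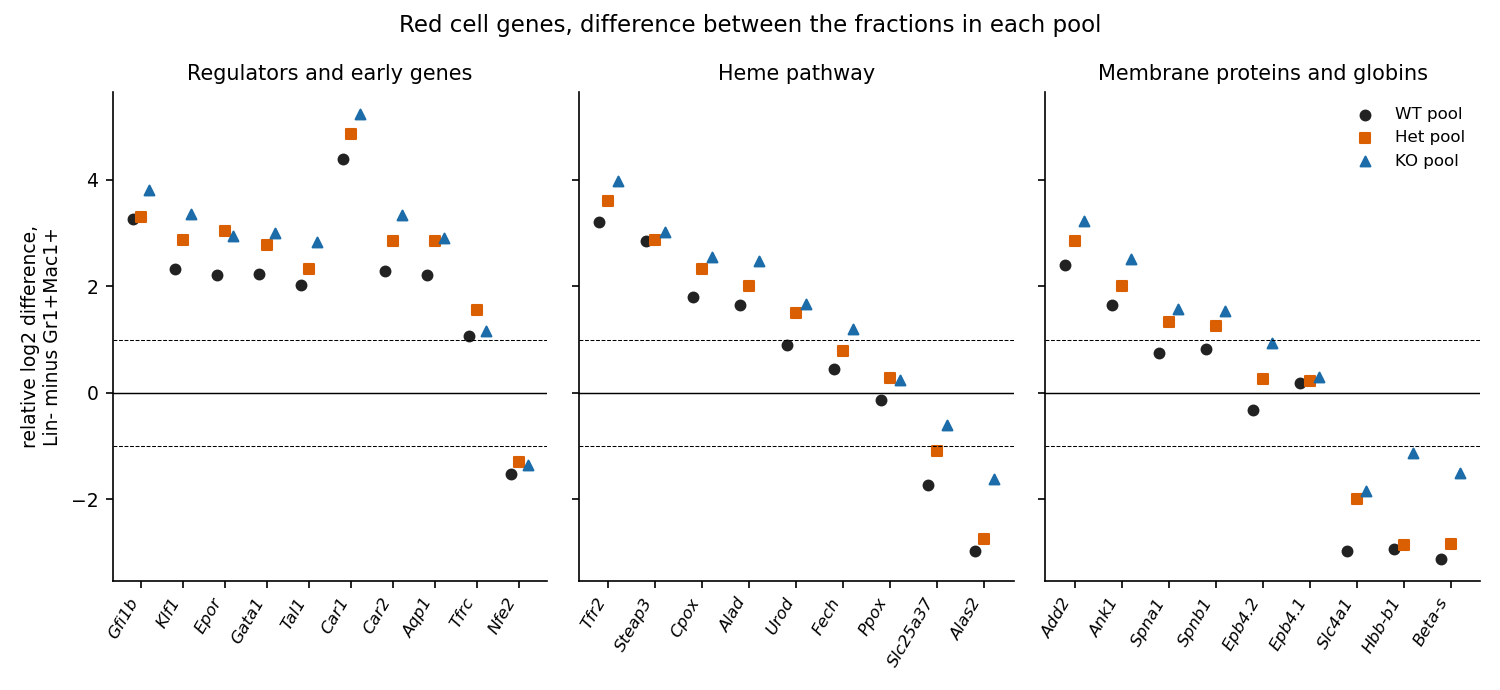
Relative log2 difference, Lin- minus Gr1+Mac1+, of 28 red cell genes in the WT (circles), Het (squares) and KO (triangles) pools; dashed lines mark 2-fold. Regulators such as Klf1 lie above 2 in every pool, the heme genes run down from Tfr2 to Alas2, and the globins and Slc4a1 lie below -1 in every pool.

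Genes of stem cells and multipotent progenitors gave a mixed picture. Of 28 tested, 10 were called higher in Lin- and 4 in Gr1+Mac1+, with a median relative log2 difference of 0.78, and 14 were not called. Those higher in Lin- included Eng, a TGF-beta co-receptor, at 2.85 and the growth regulator Myc at 2.04. Several factors of the stem cell state fell short of 2-fold: Gata2 at 0.99, Meis1 at 0.95, Hoxa9 at 0.83 and Myb at 0.77. Gata2, Meis1 and Myb were past 2-fold when no filter on level was used, as the subtracted median then moved while their fitted differences did not. Ly6a, which encodes the stem cell antigen Sca1 but is also on lymphocytes and other cells, had 4.45, 6.80 and 3.68 FPKM in Lin- and 51.4, 37.4 and 52.4 FPKM in Gr1+Mac1+ libraries. It was lower in Lin- in every pool, with a relative log2 difference of -3.36 (SE 0.26, adjusted p = 0.000448). Prom1, the prominin gene, was at most 1.28 FPKM in Lin- and at least 20.2 FPKM in Gr1+Mac1+ libraries, while the factors Erg and Lyl1 stood at -1.55 and -1.24.

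Megakaryocyte and platelet genes were called in both directions. Of 29 tested, 16 were called higher in Lin- and 7 in Gr1+Mac1+, with a median of 1.05. Pf4, the platelet chemokine, had 232.5, 307.5 and 147 FPKM in WT, Het and KO Lin- cells, against 21.4, 26.2 and 19.7 FPKM in Gr1+Mac1+ cells. Even the lowest Lin- value was above all Gr1+Mac1+ values, and the relative log2 difference was 2.91 (SE 0.15, adjusted p = 0.000117). Gp5 and Gp1ba, receptors for von Willebrand factor on platelets, stood at 2.89 and 1.72, and Vwf itself at 2.62. The genes on the other side included Thbs1, which encodes thrombospondin, at -4.44, Nbeal2, a granule biogenesis gene, at -3.17, the ETS factor Fli1 at -2.38 and the tetraspanin Cd9 at -2.33. In the summed level the fractions overlapped, with 371 to 732 FPKM in Lin- and 460 to 491 FPKM in Gr1+Mac1+ libraries.

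Genes of eosinophils, basophils and mast cells were nearly all on the Gr1+Mac1+ side, with 20 of 22 tested called there and 1 called in Lin-, at a median of -3.52 (-3.65 without the Het pool). Prg2, the eosinophil major basic protein, had 10.1, 262 and 15.1 FPKM in WT, Het and KO Lin- cells, against 4550, 4636 and 5399 FPKM in Gr1+Mac1+ cells. The Het Lin- value stood above the other Lin- values and below all Gr1+Mac1+ values (relative log2 difference -7.40, SE 0.99, adjusted p = 0.00236, and -8.86 without the Het pool). Mcpt8, a protease of basophils, had 13.2 to 19.97 FPKM in Lin- and 177 to 239 FPKM in Gr1+Mac1+ libraries, a relative log2 difference of -3.84. Il1rl1, which encodes the IL-33 receptor of mast cells and progenitors, was the member higher in Lin-, by 1.74, and Gata2 was the one not called. The Ear genes of eosinophil ribonucleases are near-identical copies and their levels are uncertain.

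Genes of the later neutrophil granules had the largest median difference of the 31 lists. All 35 tested genes of secondary and tertiary granules were called higher in Gr1+Mac1+, with a median relative log2 difference of -6.13, and of -7.48 without the Het pool. Their summed level was 78.6, 8540 and 105 FPKM in WT, Het and KO Lin- cells, against 154200, 144200 and 173500 FPKM in WT, Het and KO Gr1+Mac1+ cells. S100a8, a subunit of calprotectin, had 21.1, 2935 and 26.6 FPKM in Lin- and 50660, 46030 and 61410 FPKM in Gr1+Mac1+ libraries. Camp, the cathelicidin precursor, had 1.67, 420 and 2.65 FPKM in Lin- and 7978, 7899 and 8987 FPKM in Gr1+Mac1+ libraries. Ltf, the iron-binding lactoferrin, had 1.33, 215 and 1.94 FPKM in Lin- and 3710, 3940 and 4064 FPKM in Gr1+Mac1+ libraries. For each of these the Het Lin- library was far above the WT and KO Lin- libraries and still well below every Gr1+Mac1+ library. The relative log2 differences were -9.09 (SE 1.61, adjusted p = 0.00616) for S100a8, -9.35 (SE 1.61, adjusted p = 0.00555) for Camp and -8.75 (SE 1.42, adjusted p = 0.00458) for Ltf. Without the Het pool they were -11.47, -11.73 and -10.86, each with an adjusted p of 8.2e-05 from the WT and KO pools alone.

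**Figure D3:**
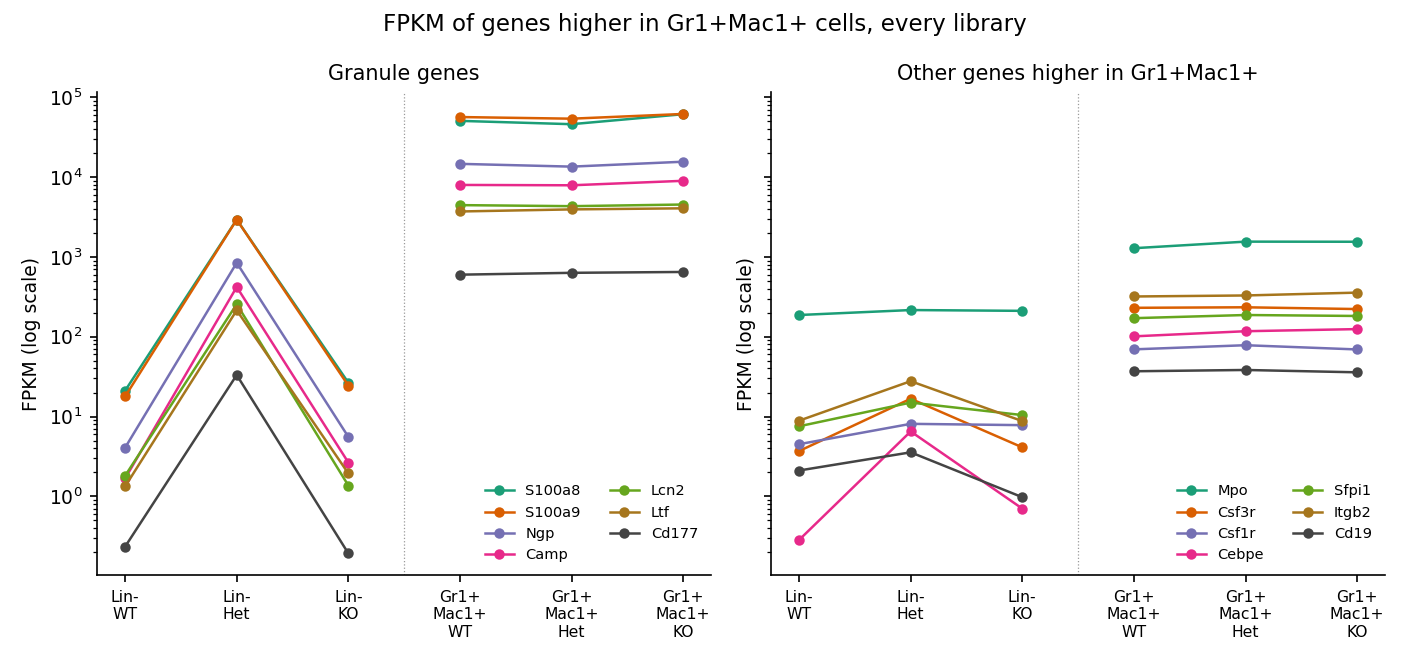
FPKM on a log axis in the WT, Het and KO Lin- libraries (left in each panel) and the WT, Het and KO Gr1+Mac1+ libraries (right in each panel) for 7 granule genes and 7 other genes called higher in Gr1+Mac1+; lines join libraries of a fraction. The Het Lin- library stands above WT and KO for every granule gene, whereas Mpo is nearly level over the Lin- libraries.

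The promoter windows of Ngp, which encodes neutrophilic granule protein, and Ltf are shown because they hold letters of a C/EBP site, TTGCNNAA on either strand, in capitals, together with those of an ETS site, GAGGAA on either strand, in capitals in Ltf. They are RefSeq windows on GRCm38.p6 at chr9:110419558-110419857 for Ngp and chr9:111019042-111019341 for Ltf, both on the plus strand.
Ngp: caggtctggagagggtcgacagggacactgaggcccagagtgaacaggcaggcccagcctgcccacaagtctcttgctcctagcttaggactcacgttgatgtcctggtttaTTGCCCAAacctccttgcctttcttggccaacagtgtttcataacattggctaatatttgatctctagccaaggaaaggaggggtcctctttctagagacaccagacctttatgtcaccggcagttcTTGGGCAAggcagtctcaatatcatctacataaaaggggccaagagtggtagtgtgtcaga
Ltf: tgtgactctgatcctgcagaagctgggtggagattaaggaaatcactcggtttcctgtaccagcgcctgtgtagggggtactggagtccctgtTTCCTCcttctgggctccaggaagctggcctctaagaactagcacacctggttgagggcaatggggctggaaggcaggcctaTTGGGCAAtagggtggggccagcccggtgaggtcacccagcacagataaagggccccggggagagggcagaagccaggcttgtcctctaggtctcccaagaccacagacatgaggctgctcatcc
Ngp holds the C/EBP letters in 2 places, and Ltf holds them once beside 1 set of ETS letters. Of the 30 list members with a window, 11 (36.7%) held the C/EBP letters and 18 (60%) the ETS letters, against 8.66% and 26.7% of the windows of all genes tested. The GATA letters were in 23.3% and the KLF letters in 13.3% of the granule windows, against 10.5% and 3.82%. The windows of Camp and S100a8 held no C/EBP letters. Over all 2033 windows of genes called higher in Gr1+Mac1+ the C/EBP letters were in 11.3%, and over 1253 windows of genes called higher in Lin- the GATA letters were in 11.4%, against 8.66% and 10.5% of the windows of all genes tested.

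Primary granule genes, which are made earlier, differed less between the fractions. Of 23 tested, 19 were called higher in Gr1+Mac1+ and none in Lin-, with a median of -3.16 (-3.26 without the Het pool). Mpo, the myeloperoxidase gene, had 187, 216 and 211 FPKM in WT, Het and KO Lin- cells, against 1286, 1554 and 1549 FPKM in Gr1+Mac1+ cells. The Lin- values lay close together here, and the relative log2 difference was -3.16 (SE 0.07, adjusted p = 0.000109). Elane, the neutrophil elastase gene, had 31.7, 84.8 and 31.1 FPKM in Lin- and 1045, 1106 and 1283 FPKM in Gr1+Mac1+ libraries, a relative log2 difference of -5.00 (SE 0.34, adjusted p = 0.000294). The median Lin- level as a share of the Gr1+Mac1+ level was 12.1% in the WT, 14.9% in the Het and 11.2% in the KO pool for this list, against 0.0416%, 5.93% and 0.0585% for the later granules. Among those not called were genes that most other cells also express, the chaperone Calr at -0.19 and the lysosomal enzyme Gusb at -0.29.

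Genes of mature neutrophils followed the granules. Of 45 tested, 44 were called higher in Gr1+Mac1+, with a median of -4.57 (-4.99 without the Het pool). Csf3r, the G-CSF receptor, had 3.69, 16.7 and 4.11 FPKM in Lin-, against 230, 234 and 222 FPKM in Gr1+Mac1+, a relative log2 difference of -5.27 (SE 0.41, adjusted p = 0.000424). The formyl peptide receptor gene Fpr2 stood at -6.47 and Padi4, the histone deiminase of neutrophils, at -5.22. Without the Het pool Csf3r was at -5.86, Fpr2 at -7.70 and Padi4 at -5.67. Tnfaip2 was the exception, with 122 to 133 FPKM in Lin- and 50.8 to 55.8 FPKM in Gr1+Mac1+ libraries and a relative log2 difference of 0.90, short of 2-fold. All 9 NADPH oxidase genes, which make the oxidative burst, were called higher in Gr1+Mac1+, with a median of -3.84 (-4.06 without the Het pool). They included the membrane subunit Cybb at -6.68 and the cytosolic subunits Ncf1 and Ncf4 at -5.26 and -5.24, which without the Het pool were at -7.82 for Cybb, -5.83 for Ncf1 and -5.76 for Ncf4. Rac1, the small GTPase that many cells use, was just past the limit at -1.02, while its blood cell relative Rac2 was at -3.24. Rap1a was also just past it, at -1.03. Rap1a was under 2-fold with a pseudocount of 5, without the filter on level, and without the WT pool (-0.97).

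Monocyte and macrophage genes were higher in Gr1+Mac1+ for 36 of 37 tested, with a median of -3.85 (-4.17 without the Het pool). Ly6c2, the marker of classical monocytes, had 22.1, 82.9 and 30.5 FPKM in Lin-, against 1217, 1069 and 1267 FPKM in Gr1+Mac1+, a relative log2 difference of -5.24 (SE 0.43, adjusted p = 0.000483), or -5.85 without the Het pool. Csf1r, the M-CSF receptor, had 4.50, 8.10 and 7.80 FPKM in Lin- and 69.5, 78.3 and 69.3 FPKM in Gr1+Mac1+ libraries. Here the KO Lin- value was close to the Het value, and the relative log2 difference was -3.60 (SE 0.15, adjusted p = 0.00012). Tissue macrophage genes were on the same side, with the complement gene C1qa at -4.65, Hmox1, which breaks down heme, at -4.90 and the adhesion gene Vcam1 at -4.54. Cd163, a hemoglobin receptor, was not called, at -0.76.

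Transcription factors of the myeloid branch were called higher in Gr1+Mac1+ for 33 of 37 tested, with a median of -2.70 (-2.77, with 32 called, without the Het pool). Sfpi1, which encodes PU.1, had 7.55, 14.96 and 10.4 FPKM in WT, Het and KO Lin- cells, against 171, 187 and 182 FPKM in Gr1+Mac1+ cells (relative log2 difference -4.30, SE 0.16, adjusted p = 0.000109). The C/EBP family was graded in its difference. Cebpe, the factor of late granules, was at -5.83, Cebpb at -4.22, Cebpd at -3.77 and Cebpa, which acts earliest, at -2.54. Cebpe had 0.284, 6.50 and 0.702 FPKM in Lin- and 101, 117 and 125 FPKM in Gr1+Mac1+ libraries, so the Het Lin- library stood out for it as for the granule genes, and without that pool it was at -6.59. Cebpa had 3.74, 4.02 and 3.77 FPKM in Lin- and 21.4, 20.6 and 21.98 FPKM in Gr1+Mac1+ libraries, with no such excess in Het. Immediate-early factors were also higher in Gr1+Mac1+, such as Fos at -3.07, Junb at -3.06 and Egr1 at -2.04. Ikzf1, a factor shared by many blood lineages, was at 0.08, Nfe2l2 at 0.10, Runx3 at 0.57 and Tfe3 at -0.64, and none of these was called.

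Lymphoid genes were found on the Gr1+Mac1+ side, although the label of that fraction names myeloid cells. Of 30 B lineage genes tested, 27 were called higher in Gr1+Mac1+ and none in Lin-, with a median of -3.002 (-2.90 without the Het pool). Cd79a, a chain of the B cell receptor complex, had 2.68, 8.10 and 2.23 FPKM in Lin-, against 84.0, 104 and 96.1 FPKM in Gr1+Mac1+, a relative log2 difference of -4.66 (SE 0.28, adjusted p = 0.000224). Pax5, the B cell identity factor, had 0.732, 0.381 and 0.241 FPKM in Lin- and 17.8, 19.96 and 21.5 FPKM in Gr1+Mac1+ libraries, a relative log2 difference of -4.18 (SE 0.17, adjusted p = 0.000111). Vpreb3, made by B cell precursors, was at -5.24. Dntt, the terminal transferase of early lymphoid progenitors, was not called, at 0.54, with 11.7 to 23.2 FPKM in Lin- and 5.90 to 9.36 FPKM in Gr1+Mac1+ libraries. The summed level of the list was 546 to 625 FPKM in Lin- and 1322 to 1343 FPKM in Gr1+Mac1+ libraries, and most of it in Lin- was Cd24a, which red cell precursors also express and which was not called, nor was Cd55. Vpreb2, a surrogate light chain gene called higher in Gr1+Mac1+ at -2.50, was at 0 in Het and KO Lin- cells, and no other listed B lineage gene was at 0 in any library. Of 24 T and NK cell genes, 13 were called higher in Gr1+Mac1+ and none in Lin-, at low levels that summed to 41.9 to 59.1 FPKM in Lin- and 149 to 173 FPKM in Gr1+Mac1+ libraries. The T cell receptor chain Cd3e was at 1.44 to 3.10 FPKM in Lin- and 2.001 to 2.57 FPKM in Gr1+Mac1+ libraries, and the ranges overlapped. Of 23 MHC class II and dendritic cell genes, 18 were called higher in Gr1+Mac1+ and 1 in Lin-, with a median of -2.22 and sums of 168 to 208 FPKM in Lin- and 924 to 1130 FPKM in Gr1+Mac1+ libraries. On the Gr1+Mac1+ side stood Cd74, the invariant chain, at -4.46 and H2-Aa, a class II chain, at -4.41. Zbtb46, known as a factor of dendritic cells that is also made by erythroid progenitors, was the member of its list called higher in Lin-, with 14.8 to 16.3 FPKM in Lin- and 0.512 to 1.87 FPKM in Gr1+Mac1+ libraries.

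Genes of stroma were mostly on the Lin- side. Of 32 genes on the list of stroma and endothelium, 17 passed the filters, with a median of 1.79. Of these, 10 were called higher in Lin- and 2 in Gr1+Mac1+, the bone factor Runx2 at -1.42 and the adhesion gene Pecam1 at -1.18. Pecam1 was the only endothelial gene of the list that was tested, as Cdh5, Kdr, Tek and Emcn fell under the level limit. The 17 genes tested summed to 506 to 927 FPKM in Lin- and 57.5 to 79.6 FPKM in Gr1+Mac1+ libraries. Col1a1, a chain of type I collagen, had 139, 296 and 180 FPKM in WT, Het and KO Lin- cells, against 4.42, 9.87 and 7.25 FPKM in WT, Het and KO Gr1+Mac1+ cells. The Het value was the highest in both fractions, so the difference was alike in the pools, at 4.38 in WT, 4.45 in Het and 4.13 in KO. The osteocalcin genes Bglap and Bglap2, markers of bone-forming cells, stood at 3.90 and 3.86 and Sparc, a bone matrix protein gene, at 3.77. Cxcl12, the chemokine of marrow stromal cells, was not called, with 2.69 to 4.25 FPKM in Lin- and 1.15 to 2.29 FPKM in Gr1+Mac1+ libraries. Also not called were Spp1, another bone matrix protein gene, at -0.71, Alpl at -0.04, Lepr at 0.46 and Serpinf1 at 0.71. Sp7, a factor of bone-forming cells below the level limit, was at 0 in WT and Het Gr1+Mac1+ cells and at 0 in no Lin- library. The part that the share of such other cells in each fraction plays in these results, and in those on lymphoid, red cell and all other gene lists, was not tested.

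**Figure D4:**
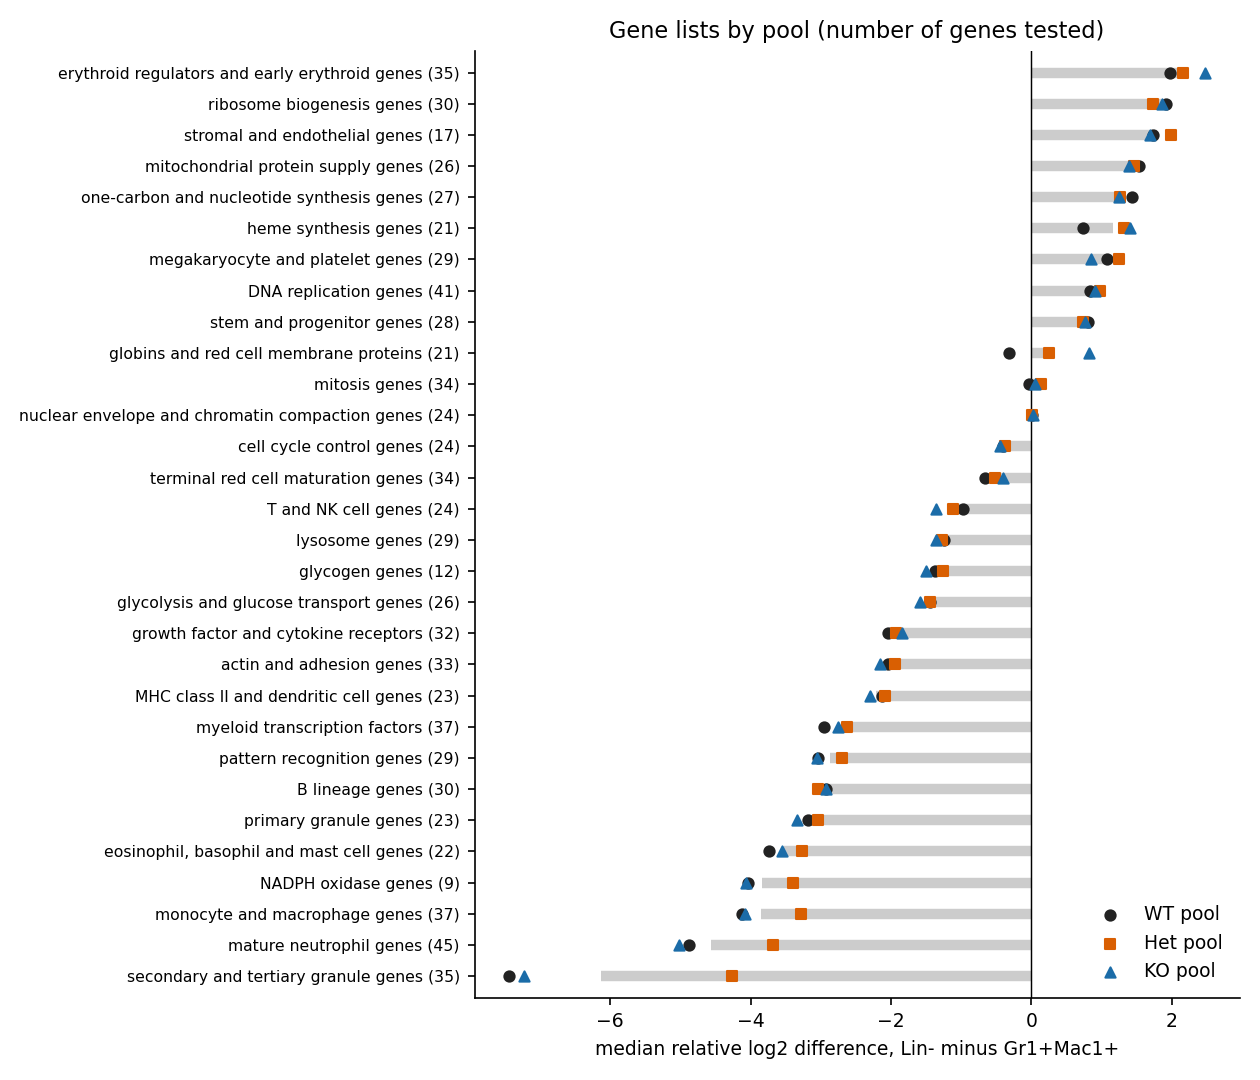
Median relative log2 difference, Lin- minus Gr1+Mac1+, of 30 gene lists in the WT (circles), Het (squares) and KO (triangles) pools, with the number of genes tested in brackets; grey bars are the medians of the fitted differences. The Het pool stands apart for the secondary and tertiary granule, mature neutrophil and monocyte lists, and the globin and membrane list runs from -0.33 in WT to 0.82 in KO.

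Lin- cells had higher levels of the genes that build ribosomes. All 30 ribosome biogenesis genes were called higher in Lin-, where 13.9% of all genes tested were, with relative log2 differences of 1.04 to 2.35 and a median of 1.88. Gnl3, the nucleostemin gene, had 116, 106.5 and 116 FPKM in WT, Het and KO Lin- cells, against 18.0, 15.9 and 16.4 FPKM in Gr1+Mac1+ cells. The libraries of a fraction agreed closely, and the relative log2 difference was 2.35 (SE 0.06, adjusted p = 0.000109). Npm1, the abundant nucleolar chaperone, had 1303, 1198 and 1207 FPKM in Lin- and 252, 221 and 262 FPKM in Gr1+Mac1+ libraries, a relative log2 difference of 1.998 (SE 0.08). Polr1b, a subunit of the polymerase that copies ribosomal RNA genes, stood at 2.27 and the rRNA methylase gene Fbl at 1.72.

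Genes of supply pathways for growth were also mostly higher in Lin-. Of 27 genes of one-carbon metabolism and nucleotide synthesis, 16 were called higher in Lin- and 1, the CTP synthase gene Ctps2 at -1.32, in Gr1+Mac1+, with a median of 1.28. Mthfd1, which makes folate carriers of single carbons, had 249, 212 and 219 FPKM in Lin- and 19.5, 17.1 and 14.5 FPKM in Gr1+Mac1+ libraries (relative log2 difference 3.33, SE 0.08). Cad, which starts pyrimidine synthesis, was at 2.66 and Impdh2, the growth-linked enzyme of guanine nucleotides, at 1.83, whereas its sister Impdh1 was at -0.55 and not called. Of 26 genes that import, fold and make mitochondrial proteins, 23 were called higher in Lin- and none in Gr1+Mac1+, with a median of 1.47, while Mrps30, Tfb2m and Tomm22 were not called. Hspd1, the mitochondrial chaperonin, had 482, 437 and 405 FPKM in Lin- and 68.5, 59.5 and 64.1 FPKM in Gr1+Mac1+ libraries, a relative log2 difference of 2.43 (SE 0.07).

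Part of the DNA replication genes reached the 2-fold call toward Lin-, and 1 mitosis gene was called, in Gr1+Mac1+ cells. Of 41 replication genes, 17 were called higher in Lin- and none in Gr1+Mac1+, and all 41 had a relative log2 difference above 0, with a median of 0.94. Mcm2, a subunit of the replicative helicase, had 156, 164 and 161.5 FPKM in Lin- and 55.7, 54.2 and 47.2 FPKM in Gr1+Mac1+ libraries, a relative log2 difference of 1.27 (SE 0.08). The called ones included Orc1 at 1.49 and Cdc6 at 1.47, which license origins, and Dut and Pold2, which do not, at 1.60 and 1.55. Not called were the helicase subunit Mcm3 at 0.996, the sliding clamp Pcna at 0.53 and Rrm2, a ribonucleotide reductase subunit, at 0.33. Of 34 mitosis genes, none was called higher in Lin- and 1, the kinesin gene Kif23 at -1.06, was called higher in Gr1+Mac1+, with a median of 0.04. Mki67, the proliferation marker, had 146.5, 163 and 160 FPKM in Lin- and 118, 119 and 99.3 FPKM in Gr1+Mac1+ libraries. The ranges did not overlap, yet at 0.15 it was near the median of all genes. The difference between the replication and the mitosis list was not tested. Kif23 was under 2-fold with a pseudocount of 5, without the filter on level, and without the WT pool (-0.98).

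Regulators of the step into the cell cycle were called in both directions, 3 of 24 in Lin- and 9 in Gr1+Mac1+. The cyclin-dependent kinases Cdk4 and Cdk6 and the cyclin Ccne1, which drive cells into S phase, were called higher in Lin-, at 1.48, 1.44 and 1.84. Called higher in Gr1+Mac1+ were the growth brakes and inhibitors Btg2 at -3.64, Btg1 at -3.62, Cdkn2d, the p19 inhibitor of CDK4 and CDK6, at -3.29, Cdkn1a at -1.92 and Cdkn1b at -1.60, and the stress gene Gadd45b at -3.54. Cdkn2d had 8.41, 12.98 and 7.79 FPKM in Lin- and 83.2, 80.3 and 78.7 FPKM in Gr1+Mac1+ libraries. Genes that drive the cycle were on the Gr1+Mac1+ side as well, with E2f2 at -1.98, the phosphatase Cdc25b at -1.63 and the cyclin Ccnd3 at -1.21, and 12 of the 24 genes were not called.

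Glycolysis genes were mostly higher in Gr1+Mac1+ cells, with related enzymes on either side. Of 26 tested, 4 were called higher in Lin- and 16 in Gr1+Mac1+, with a median of -1.49. Pklr, whose pyruvate kinase is that of liver and red cells, had 186.5, 181 and 183 FPKM in WT, Het and KO Lin- cells, against 10.5, 6.16 and 4.87 FPKM in Gr1+Mac1+ cells (relative log2 difference 4.22, SE 0.19, adjusted p = 0.00011). Pkm2, the gene of the other pyruvate kinases, had 42.9, 77.2 and 51.2 FPKM in Lin- and 623, 669 and 662 FPKM in Gr1+Mac1+ libraries (relative log2 difference -3.86, SE 0.16, adjusted p = 0.000116). Hexokinases, which start the pathway, were also on either side, with Hk1 at 1.56 and Hk2 and Hk3 at -2.95 and -4.52. Phosphofructokinase genes had Pfkm at 3.005, Pfkl at 0.91 and Pfkp at -1.45. The lactate transporter Slc16a1 was at 1.61 and its relative Slc16a3, the exporter of highly glycolytic cells, at -4.16. Of the enzymes between these steps, Pgam1, Gpi1, Eno1, Pgk1 and Aldoa were called higher in Gr1+Mac1+, at -2.59, -2.04, -1.54, -1.39 and -1.29, and Gapdh was not called, at -0.80. The lactate dehydrogenase gene Ldhb stood at -2.82 and was called, whereas Ldha was not called, at 0.31. Of 12 glycogen genes, 6 were called higher in Gr1+Mac1+ and none in Lin-. Pygl, the phosphorylase that opens glycogen stores, stood at -4.16, with 13.9 to 29.6 FPKM in Lin- and 274 to 303 FPKM in Gr1+Mac1+ libraries, and the synthase gene Gys1 stood at -2.69.

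**Figure D5:**
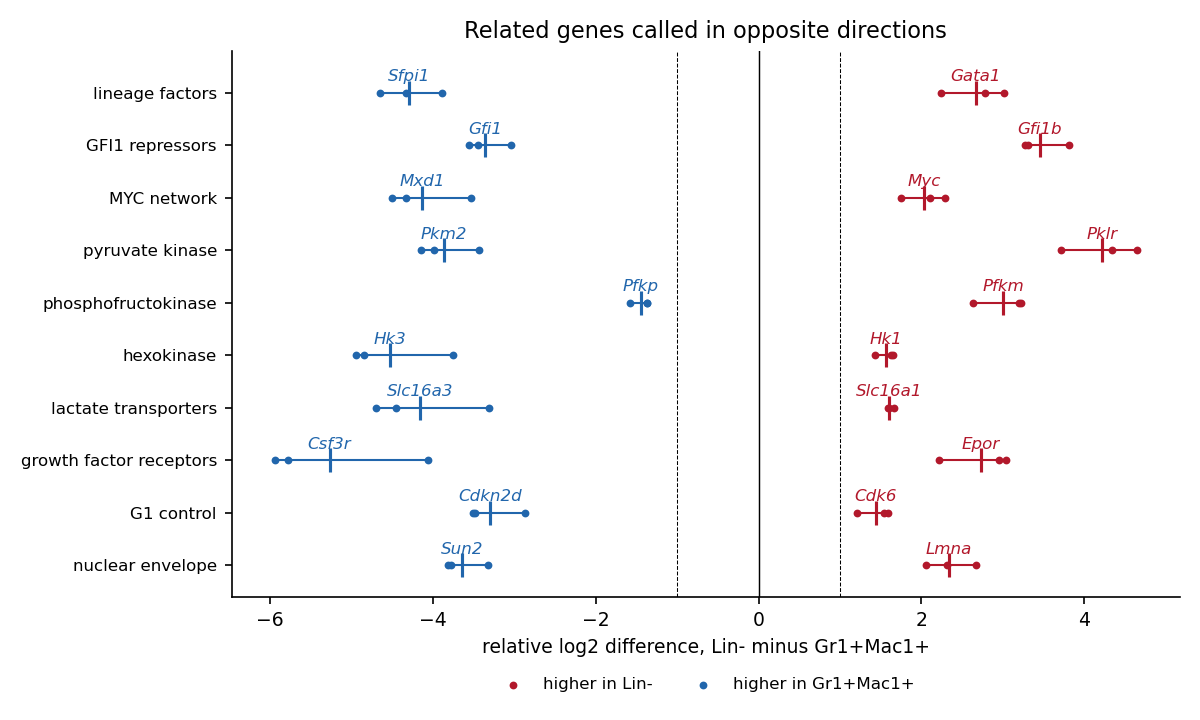
Relative log2 difference, Lin- minus Gr1+Mac1+, of 10 pairs of related genes, 1 pair per line; points are the 3 pools, ticks the fitted value and dashed lines 2-fold. Pairs were picked after their values were seen; in each, 1 gene lies above 1 and the other below -1 in every pool, as for Pklr at 4.22 and Pkm2 at -3.86.

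Some other related genes also lay on opposite sides. Gfi1b at 3.45 stood against its relative Gfi1, the repressor of the granulocyte branch, at -3.36. Gfi1 had 0.884, 1.70 and 1.46 FPKM in Lin- and 16.8, 16.7 and 20.3 FPKM in Gr1+Mac1+ libraries. Myc at 2.04 stood against Mxd1, which competes with it for the partner MAX, at -4.13. Among nuclear envelope genes, Lmna, the gene of the A-type lamins, had 71.3, 63.9 and 60.8 FPKM in Lin- and 13, 9.39 and 6.75 FPKM in Gr1+Mac1+ libraries, a relative log2 difference of 2.34 (SE 0.13, adjusted p = 0.000133). Lbr, the lamin B receptor that neutrophils need for their lobed nucleus, was on the other side at -1.23, with Sun2, which links the nucleus to the cytoskeleton, at -3.65. Lmnb1, the B-type lamin, at -0.28, was among the 17 of the 24 genes of that list that were not called.

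Receptors were mostly on the Gr1+Mac1+ side. Of 32 growth factor and cytokine receptors, 4 were called higher in Lin-, among them Epor, Kit and Il1rl1, and 26 in Gr1+Mac1+, with a median of -1.95, while Flt3 and Ifngr1 were not called. Besides Csf3r, the GM-CSF receptor genes Csf2rb and Csf2ra stood at -4.15 and -4.01. The decoy receptor Il1r2 stood at -4.94 and the TNF receptors Tnfrsf1a and Tnfrsf1b at -3.73 and -3.33. All 29 pattern recognition genes were called higher in Gr1+Mac1+, where 22.6% of all genes tested were, with a median of -2.87 (-2.99 without the Het pool). Il1b, the inflammatory cytokine, had 0.327, 8.23 and 0.431 FPKM in Lin- and 148, 157 and 156 FPKM in Gr1+Mac1+ libraries, a relative log2 difference of -6.23 (SE 0.61, adjusted p = 0.000832), or -7.12 without the Het pool. The signalling adaptor Tyrobp was at -5.29 (-5.90 without the Het pool) and the Toll-like receptor gene Tlr2 at -4.15, while Myd88, the adaptor that most of these receptors share, was at -1.63. Cd14, the co-receptor of lipopolysaccharide, was at -4.91 but varied between pools, with 0.284, 1.95 and 2.37 FPKM in WT, Het and KO Lin- cells, against 16.9, 71.4 and 132 FPKM in WT, Het and KO Gr1+Mac1+ cells.

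Genes of the motile cell were on the Gr1+Mac1+ side. Of 33 actin and adhesion genes, 26 were called higher there and none in Lin-, with a median of -2.07. Itgb2, the beta chain of Mac1 and of the other leukocyte integrins, had 8.87, 27.7 and 8.77 FPKM in Lin- and 319, 329 and 357 FPKM in Gr1+Mac1+ libraries, a relative log2 difference of -4.91 (SE 0.36, adjusted p = 0.000367). The integrin chains of progenitor homing, Itga4 and Itgb1, were not called, at 0.64 and 0.48. Coro1a, a coronin of leukocytes, stood at -4.21, Lcp1, the leukocyte actin-bundling plastin, at -4.25 and Tmsb4x, which binds actin monomers, at -4.34. Actb, the beta actin gene often taken as a constant standard, had 1095, 1135 and 988 FPKM in Lin- and 3248, 3494 and 3482 FPKM in Gr1+Mac1+ libraries and was called higher in Gr1+Mac1+ at -2.002. Of 29 lysosome genes, 21 were called higher in Gr1+Mac1+, led by Ctsh at -4.55, and 2 in Lin-. Those 2 were Ctse, a cathepsin made by red cell precursors, at 1.41 and the acid glucosidase gene Gaa at 1.22.

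Few genes were close to all or nothing. At least 10 FPKM in all libraries of one fraction and under 1 FPKM in all of the other was found for 16 genes high in Lin- and 45 high in Gr1+Mac1+. Some of these are small RNA genes, whose levels are uncertain. Among the others were Grb10, an imprinted adaptor gene, with 18.1 to 20.3 FPKM in Lin- and 0.695 to 0.896 FPKM in Gr1+Mac1+ libraries, and Clec4a3, a C-type lectin gene, with 0.152 to 0.973 FPKM in Lin- and 20.5 to 23.9 FPKM in Gr1+Mac1+ libraries. Over the WT and KO pools only, the numbers were 27 and 205.

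The difference between the fractions was mostly alike in the 3 pools. The range of a gene's log2 difference over the pools had a median of 0.29, and 95% of genes had one under 1.05. A range of at least 2 was found in 231 genes (2.01%), and in 128 of these the Het pool was farthest from the other pools, against 53 for WT and 50 for KO. Of the 128, 82 were called higher in Gr1+Mac1+. The widest ranges among protein-coding genes were those of Ngp at 7.497, S100a9 at 7.35 and Camp at 7.31, in all of which the Het Lin- library was the high one. Over all genes called higher in Gr1+Mac1+ the median was -2.05 in the WT, -1.96 in the Het and -2.06 in the KO pool, and over those called higher in Lin- it was 1.44, 1.39 and 1.44.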

How the data were processed

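Bead-selected bone marrow fractions were profiled by RNA-seq in 6 libraries. The authors deposited 1 FPKM table per library, with an interval and a status per gene. The submitters' processing notes name TopHat2 2.0.7, Cufflinks 2.0.2 and the mm10 build, without their roles. No fragment counts were used, so depth is only implied by the interval width. Locus starts, which count from 0, are given from 1.

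Genes with status OK in all libraries and a mean of at least 1 FPKM were fitted in limma 3.58.1 (R 4.3.3, with a trend) on log2(FPKM + 1), with Benjamini-Hochberg adjustment over all 11489 genes. The pool was a block because the extract protocol takes both fractions from the same mice. Checked on the values, the deviations of same-pool libraries correlated at 0.10, -0.058 and -0.012. The adjusted p tests the unshifted difference, whereas the 2-fold size is relative to the median of all genes. Alternatives were pseudocounts of 0.1 and 5, no filter or a minimum of 5 FPKM, other scalings, no block, no trend and leaving out each pool. Rescaling by the median ratio was added after seeing the data. The fit was tested on simulated data. Promoter windows are RefSeq's, and 9059 of 11417 tested symbols had one. As some symbols share a RefSeq gene, the shares rest on 9032 windows, 1 per RefSeq gene. Python 3.11.15, pandas 2.3.3, numpy 2.4.6 and matplotlib 3.10.9 were also used.

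The comparison and all lists were chosen with earlier results of these data known. The set for naming held the 15 largest called differences each way and per list up to 8 called and 3 other members. It also held the markers, 12 genes varying most between pools, and Diap1. Not all genes of this set appear in the text. The following were chosen after their values were seen: Actb, Aldoa, C1qa, Car2, Ccnd3, Cd36, Cdk4, Cdk6, Cdkn1b, Cebpa, Cebpd, Clec4a3, Ctse, Egr1, Eno1, Erg, Fbl, Fos, Gaa, Gfi1, Gp1ba, Gpi1, Grb10, Hk1, Hoxa9, Il1rl1, Impdh1, Itga4, Itgb1, Junb, Ldhb, Lmnb1, Mcpt8, Mpo, Myd88, Nfe2, Pfkl, Pfkp, Pgam1, Pgk1, Rac1, Runx3, Slc16a1, Spna1, Spnb1, Urod, Vcam1, Vpreb2, Zfpm1, the plotted gene pairs and members named to complete a count of 5 or fewer. The results of some genes are not reported here.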

Additional observations from a re-analysis of the deposited data

Results flagged for a closer look

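Rps27, a ribosomal protein gene, was the result in which the pools went opposite ways. It had 4.63, 592.5 and 352.1 FPKM in WT, Het and KO Lin- cells, against 5.79, 8.53 and 570.9 FPKM in WT, Het and KO Gr1+Mac1+ cells. The relative log2 difference was -0.59 in the WT, 5.63 in the Het and -1.02 in the KO pool, a range of 6.656, and the difference between pools was not tested. Rps27 has near-identical copies in the genome, and how the authors' counting shares fragments among them is not given in the sources used here.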

How the results depend on the processing

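The 2-fold counts, 1597 genes toward Lin- and 2591 toward Gr1+Mac1+, were 1063 and 1714 with a pseudocount of 5, and without the filter on level 2511 genes passed toward Lin-. Under the other alternatives they stayed within 1.5 times. Leaving out 1 pool gave 1551 to 1651 and 2571 to 2586 genes, and by adjusted p alone 5294 to 5662 and 3116 to 3345. Without the pool as a block the 2-fold counts were 1582 and 2585, and in the set for naming 1 gene lost its call. Of 253 called genes in that set, 12 lost the call with a pseudocount of 5 and 4 without the filter. Without the WT pool 4 lost it, without the KO pool 1 and after median-ratio rescaling 1. None changed direction in any alternative. Without the filter on level a gene's fitted difference stays the same, and only the median subtracted from it moved. Kif23 thus went from -1.06 to -0.77 and Gata2 from 0.99 to 1.28. The causes of the other changes were not tested. With 1 library per genotype and fraction, genotype, pool and library cannot be told apart, and fragment depth, known only as implied, limits low genes.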
